A study of Mus musculus with 58 samples.

Results

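Cells detect nucleic acids in the wrong place with a small set of cytosolic proteins, and 8 genes of this set were followed here in mouse microglia. The genes were *Ifih1*, *Ddx58* and *Dhx58*, which encode the RNA helicases MDA5, RIG-I and LGP2, *Mavs*, which encodes their adaptor, *Zbp1*, which encodes a sensor of Z-form nucleic acid, *Eif2ak2*, which encodes the kinase PKR, *Adar*, which encodes the RNA-editing enzyme ADAR1, and *Trex1*, which encodes a DNA exonuclease. They were given by name, with no measured value in the rule but with earlier results of these data known, and all 8 had an identifier among the 47643 genes of the count tables. The libraries were made with a QuantSeq 3′ kit, which reads each transcript near its 3′ end, so that levels of different genes can be compared without a correction for length. Their positions are given on GRCm38. *Ifih1* (ENSMUSG00000026896) lies at chr2:62595798-62646255 on the minus strand, *Ddx58* (ENSMUSG00000040296) at chr4:40203773-40239828 (minus), *Dhx58* (ENSMUSG00000017830) at chr11:100694884-100704271 (minus), *Mavs* (ENSMUSG00000037523) at chr2:131234063-131248025 (plus), *Zbp1* (ENSMUSG00000027514) at chr2:173206612-173218923 (minus), *Eif2ak2* (ENSMUSG00000024079) at chr17:78852564-78882573 (minus), *Adar* (ENSMUSG00000027951) at chr3:89715022-89753446 (plus) and *Trex1* (ENSMUSG00000049734) at chr9:109057933-109059734 (minus). The series has 58 samples, of which 34 are microglia libraries in 8 groups and 24 are cortex samples that were not analysed here.

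The first pair of groups was primary microglia of wild-type mice given full-length tau fibrils at 2 µg/ml for 24 h (tau-stimulated microglia, n = 4) or vehicle (n = 4). The second pair was microglia isolated from the brains of 11-month-old male PS19 mice, transgenic for P301S human tau (n = 4), and of male non-transgenic (NTG) mice of the same age in whole months (n = 4). The exact ages given per sample differ slightly, with NTG replicates 1 and 2 older than the other NTG and all PS19 samples. The third pair was primary IkbkbCA microglia, in which Cre switches on a constitutively active form of IKKβ, the kinase that activates NF-κB (n = 5), and IkbkbWT microglia (n = 5). The fourth was primary Ikbkb-/- microglia, in which Cre deletes the gene of IKKβ (n = 4), and Ikbkb+/+ microglia (n = 4). Per the study's methods, IkbkbCA and Ikbkb-/- microglia carry 1 Cx3cr1 CreERT2 allele, their controls carry the same floxed gene and no Cre, and all these cultures received 4-hydroxytamoxifen. The Cre allele and the change in *Ikbkb* therefore cannot be told apart. Primary microglia were shaken off mixed glial cultures of newborn cortex and hippocampus, and only the tau and vehicle cells were replated before RNA was taken. The adult cells were isolated with CD11b beads. The labels do not say whether libraries of a group came from separate cultures or animals, so the p-values measure the spread between these samples, which may be technical. For the adult pair the study's supplement gives its n in mice.

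MDA5 and RIG-I bind double-stranded or 5′-triphosphate RNA in the cytosol and engage MAVS on mitochondria, which leads through the kinases TBK1 and IKKε and through NF-κB to interferon production. LGP2 belongs to the same helicase family but lacks the signalling domains. ZBP1 binds Z-form RNA or DNA and can recruit RIPK3 to start necroptosis, PKR phosphorylates the translation factor eIF2α when it binds double-stranded RNA, and ADAR1 edits adenosines in double-stranded RNA and so keeps self RNA from being sensed. TREX1 degrades cytosolic DNA before it reaches cGAS. Many of these genes are themselves interferon-stimulated genes, so sensors and interferon can form a loop in microglia, the resident macrophages of the brain.

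Total counts were 1672052 to 8349128 per library. Levels are given as CPM, the counts scaled to library size with TMM normalization over all 34 libraries. The microglial markers were present in every group, with *Cx3cr1* between 945.1 and 10860 CPM, while 5 of the 6 lymphocyte markers or more were at 0 in each group. *Ikbkb* was at 24.6, 24.4, 18.4 and 22.2 CPM in the 4 Ikbkb-/- libraries and at 44.6 to 55.1 CPM in the Ikbkb+/+ libraries, so that the groups did not overlap (log2 fold change −1.21 ± 0.12 (SE), FDR 6.34e-07). In IkbkbCA it was at 44.1 to 59.5 CPM against 39.8 to 57.7 CPM in IkbkbWT (FDR 0.405). Whether the active transgene carries the 3′ end counted here is not given in the sources used, so this value does not check the IkbkbCA labels. *Cx3cr1*, the gene that holds the Cre allele, was lower in IkbkbCA (1107 to 1297 CPM against 1455 to 1962 CPM) and in Ikbkb-/- (945.1 to 1153 CPM against 1820 to 2808 CPM).

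Some of the members share a sequence feature that the choice did not use. RefSeq promoter sequences (GRCm38.p6, 250 bases before to 50 bases after a transcript start) were at hand for 6 of the 8 genes and 9 transcript starts, those of *Ifih1*, *Ddx58*, *Mavs*, *Eif2ak2*, *Adar* with 3 starts and *Trex1* with 2 starts. They were searched on both strands for GAAA followed by a second GAAA after any 2 bases or after any 1 base, which are spellings of the paired repeat found in the interferon-stimulated response element, and for GGG followed by CC after any 5 bases, which resembles a κB site. The 2 spellings can share 1 GAAA but not both. A GAAA pair was present in *Ifih1*, *Ddx58*, *Eif2ak2* and 1 start of *Adar*, and in 6.27% of all 32851 promoters. No GAAA pair was found in the windows of *Mavs* or *Trex1*. The matches on the strand of the gene are shown here because these 4 genes moved together in the comparisons described next. Each line holds 30 bases with the match in capitals.
Ifih1: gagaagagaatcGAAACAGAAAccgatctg
Ddx58: gtctaggttcaGAAACGAAActggatcccc
Eif2ak2: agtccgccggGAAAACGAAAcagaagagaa
Adar: gccttttcaagGAAACGAAAgtgaactctg
The *Ifih1* line is chr2:62646206-62646235 on the minus strand, with its match 33 to 42 bases after the start. The *Ddx58* line is chr4:40239867-40239896 on the minus strand, and its match ends 52 bases before the start. A second pair, on the other strand, begins at base 3 after the start of *Ddx58*. The *Eif2ak2* line is chr17:78882535-78882564 on the minus strand, with its match from base 19 to base 28 after the start. The *Adar* line is chr3:89730735-89730764 on the plus strand, with its match from base 29 to base 37 after that start. The spelling with 2 bases between was present in 3.44% and that with 1 base between in 3.17% of all promoters. The κB spelling was present in 50.8% of all promoters, in *Eif2ak2*, in 2 of the 3 starts of *Adar* and in *Trex1*, and was not found in the windows of *Ifih1*, *Ddx58* or *Mavs*. These matches are descriptions of letters and not measured binding sites.

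Tau fibrils raised the RNA of 6 of the 7 sensor genes that could be tested, and the adaptor *Mavs* was the exception. A gene was called at a Benjamini-Hochberg FDR under 0.05 in edgeR's quasi-likelihood test. Of the 10408 genes tested, 14.5% were called higher and 15.4% lower. The 6 members also had groups that did not overlap, as had 14.7% of all genes in the upward direction. The median log2 fold change was 3.23 over the 7 members and −0.01 over all genes.

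The 3 helicases rose from low levels, *Ifih1* and *Ddx58* to levels that overlapped and *Dhx58* to a lower one. *Ifih1* was at 8.54, 10.1, 8.65 and 11.5 CPM in the vehicle libraries and at 105.6, 91.7, 88.2 and 92.7 CPM in the tau libraries, a 9.53-fold difference (95% confidence interval 7.34 to 12.4, FDR 5.07e-14). *Ddx58* was at 6.404, 12.3, 10.8 and 11.0 CPM with vehicle and at 98.9, 106.4, 88.5 and 108.5 CPM with tau, 9.41-fold higher (7.18 to 12.3, FDR 1.24e-13). For both genes the lowest tau library was several times the highest vehicle library. *Dhx58* started lower, at 3.74, 1.87, 5.19 and 3.0 CPM, and reached 58.9, 51.9, 49.4 and 66.4 CPM, 17.46-fold higher (11.9 to 25.5, FDR 1.01e-12). Its vehicle values rest on 6 to 12 counts per library. LGP2 transcripts made up 15.1% ± 6.47 (SD, n = 4) of the summed CPM of the 3 helicases with vehicle and 22.5% ± 1.71 with tau, and the ranges of this share overlapped.

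*Mavs*, through which MDA5 and RIG-I signal, was at 11.7, 8.58, 15.6 and 12.0 CPM with vehicle and at 14.5, 7.96, 18.5 and 8.43 CPM with tau. The tau libraries lay on both sides of the vehicle libraries (log2 fold change 0.06 ± 0.31, 95% confidence interval −0.57 to 0.69, FDR 0.908), so a change of up to 1.62-fold upward or down to 0.676-fold cannot be told from none at this depth. The summed CPM of the 3 helicases was 2.03 ± 0.587 times that of *Mavs* with vehicle and 23.4 ± 9.75 times with tau (SD, n = 4).

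*Zbp1* showed the highest fold change of the members. It was at 1.60, 1.49, 2.16 and 2.50 CPM with vehicle, on 3 to 8 counts per library, and at 56.7, 42.3, 65.3 and 73.8 CPM with tau. The fitted difference was 31.1-fold (20.8 to 46.6, FDR 7.13e-14). The low counts leave the vehicle level itself imprecise.

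*Eif2ak2* was at 7.47, 16.2, 22.9 and 11.5 CPM with vehicle and at 61.7, 72.9, 62.0 and 61.5 CPM with tau, 4.26-fold higher (3.10 to 5.86, FDR 3.04e-08). Here the vehicle libraries scattered more than the tau libraries. *Adar* was at 18.7, 27.1, 21.6 and 30.5 CPM with vehicle and at 75.6, 87.1, 71.2 and 68.9 CPM with tau, 3.02-fold higher (2.35 to 3.89, FDR 5.48e-08). Reads at the shared 3′ end of *Adar* do not separate the long, interferon-inducible form of ADAR1 from the short form.

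Cell type markers and measures of the libraries moved between the same groups. Reads outside genes were 16.3% to 22.2% with tau and 23.3% to 29.1% with vehicle, and mitochondrial counts were 3.11% to 4.11% and 4.33% to 5.80%, both without overlap. The summed CPM of 10 microglial markers was 11210 to 12830 with tau and 5008 to 6416 with vehicle, and 6 of the 10 were called higher. Summed astrocyte markers were 350.2 to 413.9 CPM with tau and 643.9 to 689.0 CPM with vehicle, and 4 of 6 were called lower, as were 4 of 5 neuronal markers. The part of these shifts in the sensor changes was not tested. In bulk RNA, a change in the number of cells of a type and a change in RNA per cell cannot be told apart.

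**Figure D1:**
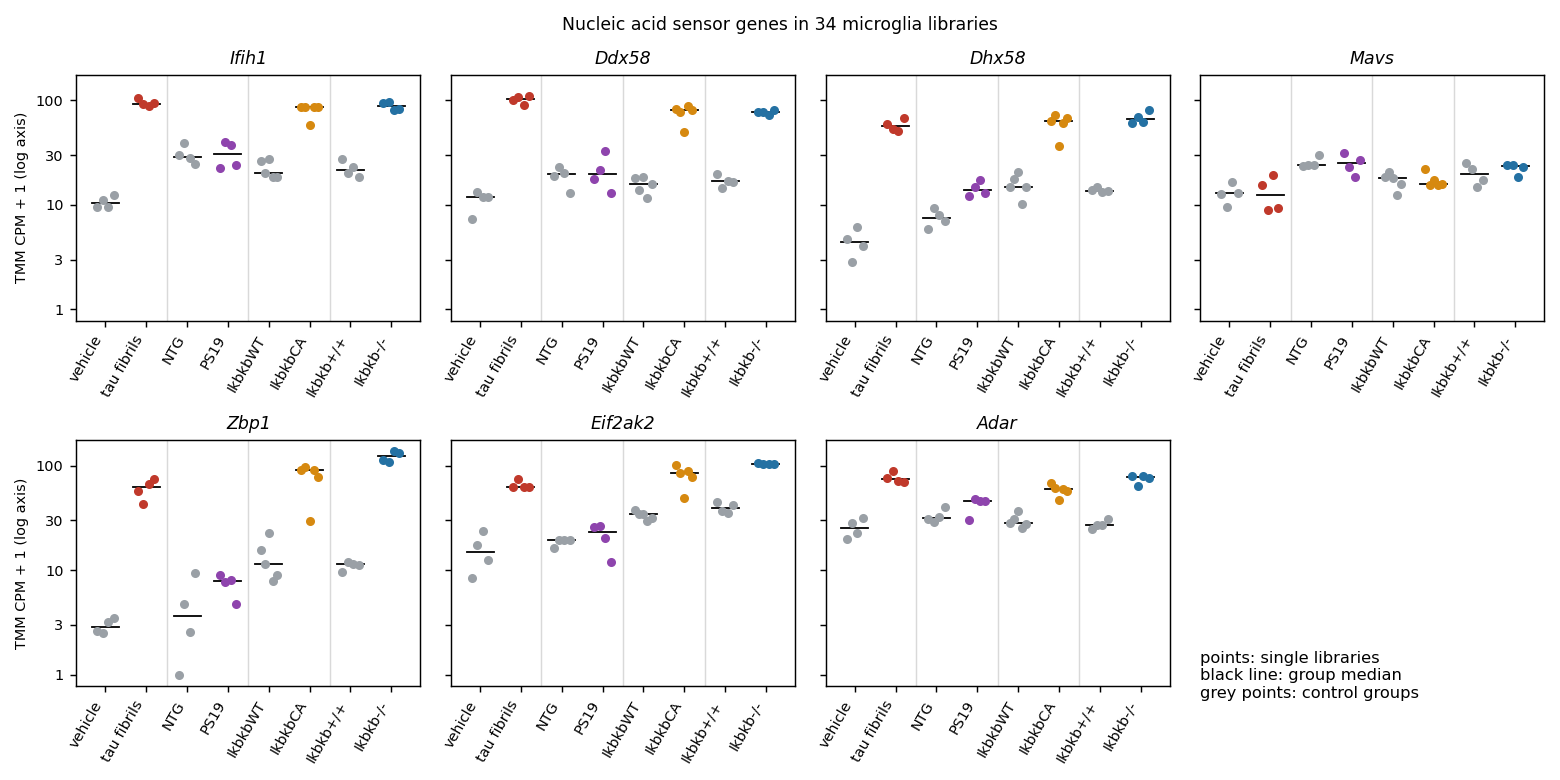
Level of 7 sensor genes in each of 34 microglia libraries, as TMM CPM + 1 on a log axis, with 1 point per library, a black line at the group median and control groups in grey. The tau, IkbkbCA and Ikbkb-/- libraries lie above all their controls for every gene except *Mavs*, and the PS19 libraries lie above all NTG libraries for *Dhx58*, at 11.1 to 16.4 CPM against 4.94 to 8.39 CPM.

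None of the 7 tested members passed the threshold in PS19 microglia, where 1 had an unadjusted p under 0.05 and 0 passed with DESeq2 or limma-voom. In this comparison 0.0707% of 11323 genes were called higher and 0.0% lower, while 977 genes had an unadjusted p under 0.05, so few genes of any kind passed. The median log2 fold change of the members was 0.15, against 0.00 over all genes. The members' highest fold changes belonged to *Dhx58* and *Zbp1*.

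*Dhx58* was at 4.94, 8.39, 7.05 and 6.01 CPM in NTG microglia and at 11.1, 13.8, 16.4 and 11.9 CPM in PS19 microglia. It was the only member whose groups did not overlap, which held for 3.86% of all genes in the upward direction. The difference was 1.94-fold (1.25 to 3.02, unadjusted p = 0.00627, FDR 0.384). When the spread was estimated from all 34 libraries the log2 fold change was 0.98 and the FDR 0.0263. That fit called 375 of 13722 genes, against 8 of 11323 in the fit of the adult libraries alone.

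*Zbp1* was at 0, 3.78, 1.54 and 8.41 CPM in the NTG libraries and at 8.06, 6.72, 7.09 and 3.75 CPM in PS19 microglia. The groups overlapped, and 1 NTG library had 0 counts, where 3 counts would have been 1.80 CPM (log2 fold change 0.94 ± 0.69, 95% confidence interval −0.55 to 2.43, FDR 0.731). *Adar* was at 30.2, 28.1, 31.3 and 39.1 CPM in NTG and at 29.2, 47.4, 45.4 and 45.0 CPM in PS19, with 3 of 4 PS19 libraries above all NTG libraries (0.34 ± 0.21, FDR 0.680). The fourth was PS19 replicate 1.

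*Ifih1* was at 23.4 to 37.8 CPM in NTG and 21.3 to 39.4 CPM in PS19 (log2 fold change −0.01 ± 0.25, 95% confidence interval −0.55 to 0.53). *Ddx58* was at 12.0 to 21.8 CPM and 12.1 to 31.9 CPM (0.15 ± 0.31, −0.52 to 0.83). *Eif2ak2* was at 15.4 to 18.6 CPM and 11.1 to 25.4 CPM (0.15 ± 0.28, −0.46 to 0.76), and *Mavs* at 22.5 to 28.9 CPM and 17.6 to 30.5 CPM (−0.05 ± 0.24, −0.56 to 0.46). For *Ifih1*, *Ddx58* and *Eif2ak2* the upper bounds lie below the intervals of the same genes with tau fibrils.

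The adult libraries differed among themselves in other RNA. The summed level of granulocyte markers ranged from 430.9 to 2717 CPM over the PS19 and from 1636 to 2274 CPM over the NTG libraries, against at most 406.7 CPM in any cultured library. *Xist*, an RNA of the inactive X chromosome, was at 175.4 CPM in PS19 replicate 1 and at 1.88 to 33.0 CPM in the other adult libraries, all labelled male. Without PS19 replicate 1, 6 of 11280 genes and 0 members were called, so this count says little about that library. The part of these differences in the member values was not tested.

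IkbkbCA microglia held more RNA of the same 6 members than IkbkbWT microglia, and *Mavs* did not pass the test. Of 11697 genes, 7.31% were called higher and 7.16% lower, and 6.93% had an IkbkbCA group wholly above the controls, which held for these 6 members. The median log2 fold change was 1.89 over the 7 members and −0.05 over all genes.

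Among the helicases, *Ddx58* changed most. It was at 17.2, 13.02, 17.7, 10.6 and 14.7 CPM in IkbkbWT and at 81.7, 75.7, 48.9, 87.3 and 79.4 CPM in IkbkbCA, 5.01-fold higher (3.82 to 6.58, FDR 1.04e-05). *Dhx58* was at 13.9, 16.8, 19.5, 9.14 and 13.7 CPM in the controls and at 63.2, 70.95, 35.5, 59.4 and 67.4 CPM in IkbkbCA, 3.997-fold higher (2.88 to 5.55, FDR 9.13e-05). *Ifih1* was at 25.6, 19.2, 26.2, 17.48 and 17.48 CPM and at 85.1, 85.8, 57.7, 84.7 and 84.6 CPM, 3.70-fold higher (2.93 to 4.67, FDR 1.55e-05). In each gene the third IkbkbCA library was the lowest of its group and still above every control.

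*Mavs* was at 11.5 to 19.6 CPM in IkbkbWT and 14.4 to 20.9 CPM in IkbkbCA, and its interval allows 0.775-fold to 1.26-fold (FDR 0.960). *Zbp1* was at 14.7, 10.4, 21.9, 6.93 and 8.03 CPM in the controls and at 90.8, 96.3, 28.3, 89.2 and 77.0 CPM in IkbkbCA, 6.12-fold higher (3.502 to 10.7, FDR 0.000578). *Eif2ak2* was at 28.4 to 36.6 CPM and 48.3 to 99.5 CPM, 2.42-fold higher (1.88 to 3.10, FDR 0.000339). *Adar* was at 24.1 to 35.5 CPM and 46.1 to 67.2 CPM, 1.97-fold higher (1.64 to 2.38, FDR 0.000283).

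The IkbkbCA replicate 3 stood apart from the other 4 libraries of its group. Its level was 32.0% of their mean for *Zbp1*, 54.4% for *Dhx58*, 55.4% for *Eif2ak2*, 60.3% for *Ddx58*, 67.9% for *Ifih1* and 76.0% for *Adar*, and 101.5% for *Mavs*. *Isg15*, an interferon-stimulated gene outside the set, was at 30.4% of their mean, while *Cdkn1a*, a p53 target, was at 106.0% and *Ikbkb* at 109.5%. Without this library the same 6 members were called, among 1693 of 12006 genes called in either direction. *Zbp1* then had a log2 fold change of 2.85, against 2.61 with the library.

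The IkbkbWT libraries also fell into 2 kinds. Replicates 1 to 3 had *Ddx3y*, a Y-linked gene, at 140.6 to 172.2 CPM and *Xist* at 1.67 to 2.75 CPM, while replicates 4 and 5 had *Ddx3y* at 1.10 to 1.98 CPM and *Xist* at 450.3 to 470.6 CPM. *Zbp1* was at 10.4 to 21.9 CPM in the first 3 and 6.93 to 8.03 CPM in the last 2. *Mavs* was at 17.3 to 19.6 CPM in the first 3 and 11.5 to 14.95 CPM in the last 2. The first 3 also lay above the last 2 for *Ifih1*, *Dhx58*, *Eif2ak2* and *Adar*, while the ranges of *Ddx58* overlapped. The IkbkbCA libraries differed less, with *Xist* at 263.2 to 274.7 CPM in replicates 1 to 3 and 146.3 to 152.0 CPM in replicates 4 and 5, and *Ddx3y* at 48.9 to 84.0 CPM over all 5. With only the first 3 or only the last 2 as controls, 6 members were called each time. With the last 2, 847 of 12454 genes were called in either direction. The number of all genes called with the first 3 is not given here. Summed markers of border-associated macrophages were at 481.9 to 1026 CPM in IkbkbCA and 1371 to 1887 CPM in IkbkbWT, with 4 of 5 tested markers lower, and those of granulocytes at 16.8 to 85.3 CPM and 6.62 to 12.0 CPM. Reads outside genes were 12.4% to 13.99% in IkbkbCA and 15.9% to 18.7% in IkbkbWT, and mitochondrial counts 3.46% to 4.10% and 4.15% to 4.60%. The part of these differences in the sensor changes was not tested, apart from the values just given for the 2 kinds of control library.

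Deletion of *Ikbkb* was accompanied by the same direction of change as its activation. In Ikbkb-/- microglia the same 6 members were called higher, among 7.64% of 11242 genes called higher and 6.96% called lower. All 6 had groups that did not overlap, as had 9.11% of all genes in that direction. Their Ikbkb-/- libraries scattered little.

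*Zbp1* was at 8.61, 11.1, 10.5 and 10.3 CPM in Ikbkb+/+ and at 113.6, 106.9, 137.3 and 132.1 CPM in Ikbkb-/- microglia, 12.0-fold higher (10.1 to 14.3, FDR 3.67e-13). *Dhx58* was at 12.9, 13.7, 12.3 and 12.4 CPM and at 59.6, 68.5, 61.7 and 80.4 CPM, 5.35-fold higher (4.48 to 6.38, FDR 6.66e-11). *Ddx58* was at 18.7, 13.5, 16.1 and 15.5 CPM and at 77.0, 76.2, 71.9 and 79.9 CPM, 4.87-fold higher (4.15 to 5.71, FDR 3.54e-11). The 4 controls of each of these genes lay close together and far below every Ikbkb-/- library.

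*Ifih1* was at 26.6, 19.0, 22.3 and 17.6 CPM in the controls and at 92.9, 96.0, 80.9 and 82.6 CPM in Ikbkb-/-, 4.22-fold higher (3.52 to 5.06, FDR 9.85e-10). *Adar* was at 24.1 to 29.8 CPM and 63.4 to 79.5 CPM, 2.78-fold higher (2.38 to 3.25, FDR 1.16e-08). *Eif2ak2* was at 34.6 to 44.2 CPM and at 104.4, 103.2, 103.9 and 103.5 CPM, 2.70-fold higher (2.35 to 3.11, FDR 4.54e-09). *Mavs* was at 24.4, 21.1, 13.9 and 16.2 CPM and at 22.95, 23.1, 17.51 and 22.2 CPM and did not pass the test (log2 fold change 0.22 ± 0.18, 95% confidence interval −0.15 to 0.59, FDR 0.463).

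The Ikbkb-/- libraries differed from their controls in sex-linked RNA as well. *Ddx3y* was at 154.1 to 172.1 CPM in Ikbkb-/- and 34.9 to 68.2 CPM in Ikbkb+/+, and *Xist* at 5.57 to 10.4 CPM and 238.7 to 399.3 CPM. With the level of *Ddx3y* as a covariate, which is close to the genotype itself, the log2 fold change was 3.87 for *Zbp1*, and 4 members remained called. That fit called 279 of 11242 genes, against 1641 without the covariate. *Ifih1* (1.39, FDR 0.0796) and *Eif2ak2* (1.19, FDR 0.0525) no longer passed. Summed markers of border-associated macrophages were at 416.2 to 730.4 CPM in Ikbkb-/- and 1483 to 1816 CPM in Ikbkb+/+, with 5 of 5 tested markers lower, and those of oligodendrocytes at 489.0 to 567.6 CPM and 262.8 to 369.6 CPM, with 5 of 6 higher. Summed markers of endothelial cells and fibroblasts were at 160.6 to 212.8 CPM and 64.2 to 112.0 CPM, with 1 of 2 tested higher and 1 lower, and those of granulocytes at 8.06 to 13 CPM and 8.07 to 406.7 CPM, with 2 of 2 tested lower. Mitochondrial counts were 2.60% to 3.31% in Ikbkb-/- and 3.56% to 3.82% in Ikbkb+/+. Their part in the sensor changes was not tested.

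**Figure D2:**
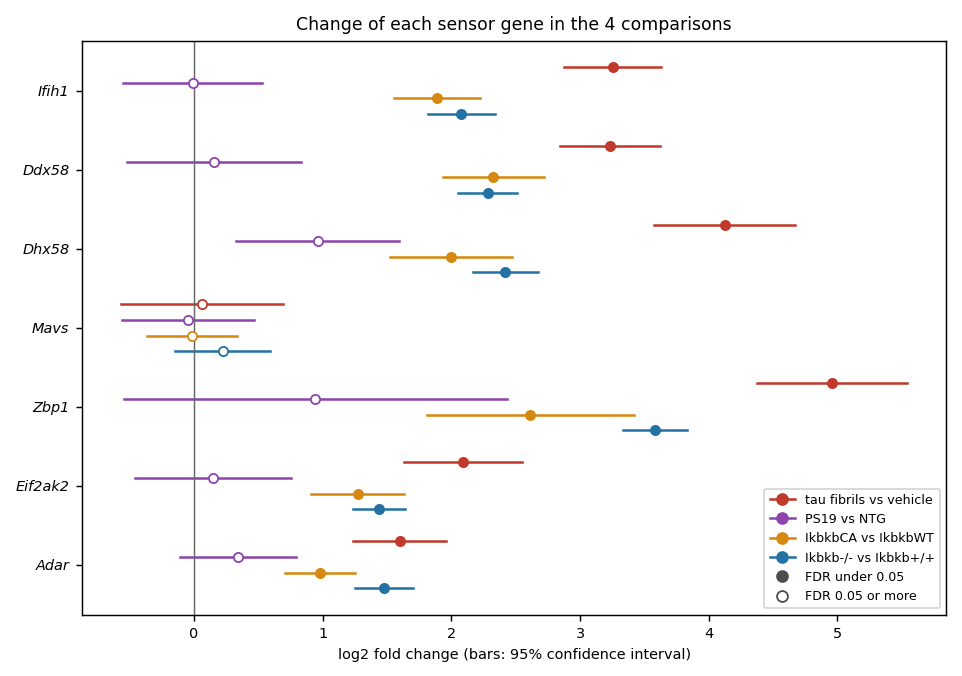
Log2 fold change of 7 sensor genes in the 4 comparisons, with 95% confidence intervals and filled points where the FDR was under 0.05. The 6 members other than *Mavs* are filled with tau fibrils, in IkbkbCA and in Ikbkb-/-, and all 7 points of PS19 are open.

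Each difference between effects was tested in 1 fit of the libraries concerned. Tau fibrils changed 6 members by more than PS19 did (957 of 11852 genes, 8.07%, were called in either direction). The difference in log2 fold change was 3.86 ± 0.73 for *Zbp1* (FDR 0.00128), 3.18 ± 0.31 for *Ifih1* (FDR 3.83e-07), 3.05 ± 0.40 for *Dhx58* (FDR 1.96e-05), 3.02 ± 0.38 for *Ddx58* (FDR 1.03e-05), 1.87 ± 0.39 for *Eif2ak2* (FDR 0.00315) and 1.17 ± 0.27 for *Adar* (FDR 0.00827). For *Mavs* it was 0.02 ± 0.40. The cells of this pair of experiments also differ in age and in culture against direct isolation, which the difference includes.

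The effect of tau fibrils was larger than that of IkbkbCA for *Zbp1* (difference 2.28 ± 0.61, FDR 0.0216), *Dhx58* (2.05 ± 0.38, FDR 0.00158) and *Ifih1* (1.29 ± 0.23, FDR 0.000901), in a test that called 9.42% of 12841 genes. It did not pass for *Ddx58* (0.84 ± 0.27, FDR 0.0517), *Eif2ak2* (0.75 ± 0.30, FDR 0.133), *Adar* (0.54 ± 0.21, FDR 0.112) or *Mavs* (0.00 ± 0.39). Without vehicle replicate 2 the difference for *Zbp1* was 2.11 with an FDR of 0.0818. *Ddx58* passed when tau replicate 3, vehicle replicate 2, IkbkbWT replicate 2 or 4, or IkbkbCA replicate 1, 3 or 4 was left out (FDR 0.0292 to 0.0486), and *Eif2ak2* when vehicle replicate 3 was (FDR 0.0404). This test uses the same tau and vehicle libraries as the preceding one. The vehicle cultures started lower than the IkbkbWT cultures for *Zbp1*, at 1.49 to 2.50 CPM against 6.93 to 21.9 CPM, while the treated groups overlapped. The same held for *Dhx58*, at 1.87 to 5.19 CPM against 9.14 to 19.5 CPM, with treated groups that overlapped. *Ifih1* also started lower with vehicle, at 8.54 to 11.5 CPM against 17.48 to 26.2 CPM. Its tau libraries, at 88.2 to 105.6 CPM, lay above its IkbkbCA libraries, at 57.7 to 85.8 CPM.

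IkbkbCA and Ikbkb-/- had no member whose effects differed at an FDR under 0.05, with edgeR, DESeq2 or limma-voom, in an edgeR test that called 386 of 12352 genes (3.12%). At an unadjusted p under 0.05 in edgeR, 2 members differed, as did 1889 of the 12352 genes. The effect of IkbkbCA was smaller by 0.95 ± 0.44 for *Zbp1* (95% confidence interval of the difference −1.89 to −0.02, FDR 0.313) and by 0.49 ± 0.17 for *Adar* (−0.84 to −0.14, FDR 0.143). The interval was −0.97 to 0.18 for *Dhx58*, −0.62 to 0.29 for *Ifih1*, −0.41 to 0.53 for *Ddx58*, −0.57 to 0.29 for *Eif2ak2* and −0.74 to 0.33 for *Mavs*. In the same fit *Ikbkb* itself differed by 1.38 ± 0.17 (FDR 7.99e-05).

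**Figure D3:**
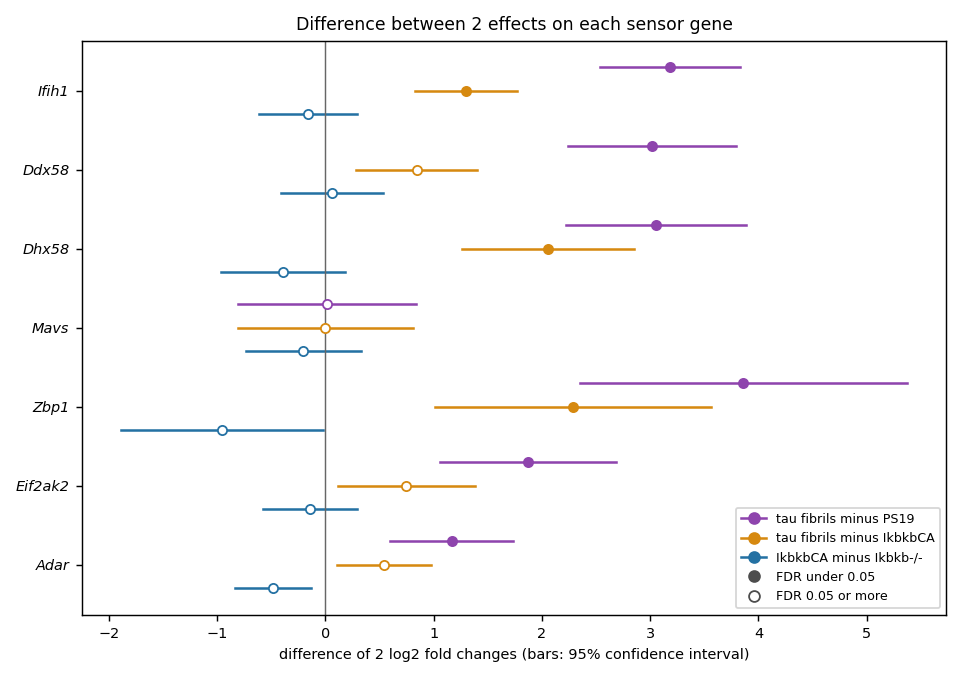
Difference between 2 effects on each of 7 sensor genes, in log2 units with 95% confidence intervals and filled points where the FDR was under 0.05. Tau fibrils against PS19 gives 6 filled points, tau fibrils against IkbkbCA gives 3, and IkbkbCA against Ikbkb-/- gives none.

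Set side by side over all 8 groups, the members differed in where their levels were highest. *Zbp1* was highest in Ikbkb-/- (122.5 ± 14.5 CPM, SD, n = 4), followed by IkbkbCA (76.3 ± 27.8 CPM, n = 5) and tau (59.5 ± 13.5 CPM, n = 4), and lowest with vehicle (1.94 ± 0.475 CPM). The ranges of Ikbkb-/- and IkbkbCA did not overlap, those of IkbkbCA and tau did. *Eif2ak2* had the same order of the first 3 groups, at 103.7 ± 0.502, 79.5 ± 19.3 and 64.5 ± 5.59 CPM. *Ddx58* was highest with tau (100.6 ± 9.03 CPM), above every Ikbkb-/- library (76.2 ± 3.31 CPM). For *Ifih1* the tau (94.6 ± 7.63 CPM), Ikbkb-/- (88.1 ± 7.48 CPM) and IkbkbCA (79.6 ± 12.2 CPM) groups overlapped in turn, as did the same 3 groups for *Dhx58* and *Adar*.

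Below these 3 groups, *Ifih1*, *Ddx58* and *Adar* had their next highest means in the adult cells. *Ifih1* was at 30.0 ± 9.15 CPM over the PS19 and 29.3 ± 6.10 CPM over the NTG libraries. For each of these genes both adult ranges overlapped with those of Ikbkb+/+ and IkbkbWT. *Eif2ak2* was at 38.8 ± 4.42 CPM in Ikbkb+/+ and 32.4 ± 3.13 CPM in IkbkbWT, the cultured controls of the *Ikbkb* experiments. It was lower in PS19 (20.1 ± 6.60 CPM) and NTG (17.7 ± 1.56 CPM). *Mavs* ranged from 12.0 ± 2.85 CPM with vehicle to 24.4 ± 2.96 CPM in NTG, and each group overlapped with its neighbours in that order. The 3 control cultures were not alike. The vehicle cultures, which were replated and the others not, had the lowest mean of all 8 groups for each of the 7 measured members.

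Genes that act around the sensors were counted in 9 lists holding 100 genes. With tau fibrils 48 of the 90 tested were called higher and 4 lower, with a median log2 fold change of 0.59. In IkbkbCA 34 of 96 were called higher and 4 lower (median 0.22), and in Ikbkb-/- 28 of 94 higher and 5 lower (median 0.13). Over all genes tested the shares called higher and lower were 14.5% and 15.4% with tau, 7.31% and 7.16% in IkbkbCA and 7.64% and 6.96% in Ikbkb-/-, and each list is to be read against these. None of the 84 tested in PS19 was called by edgeR (median 0.03), and 9 of them had an unadjusted p under 0.05, as had 977 of all 11323 genes.

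The type I interferon list, which holds the receptor subunits, signalling components and interferon-stimulated genes, had 11 of 11 tested genes higher with tau (median log2 fold change 3.29), 7 of 11 in IkbkbCA (2.04) and 7 of 11 in Ikbkb-/- (2.00). *Isg15*, a ubiquitin-like modifier, was at 4.11 to 10.5 CPM with vehicle and at 196.0 to 292.2 CPM with tau, and *Usp18*, which removes it, changed by 4.99 on the log2 scale. In IkbkbCA *Usp18* (3.94) and *Ifit1* (3.54), which binds foreign RNA ends, led the list, and in Ikbkb-/- *Ifit1* (4.14) and *Isg15* (3.94). The receptor subunits *Ifnar1* and *Ifnar2* rose with tau, by 0.78 and 0.77, and did not pass in either *Ikbkb* comparison.

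*Ifnb1*, which encodes interferon β, had 0 counts in all 8 tau and vehicle libraries, where 3 counts would have been 0.560 to 1.67 CPM. It had at most 4 counts in any of the *Ikbkb* cultures, 21 counts in PS19 replicate 3 and 2 or fewer in the other adult libraries. PS19 replicate 3 was also the PS19 library with the highest *Ddx58* and *Dhx58*. It was not the highest for *Ifih1*, *Zbp1*, *Eif2ak2*, *Adar* or *Mavs*. Its *Isg15* was at 12.1 CPM, within the 10.6 to 24.5 CPM of the PS19 group.

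The 2-5A synthetases make a short oligoadenylate messenger when they bind double-stranded RNA. Of the 2-5A list, 4 of 5 tested genes were higher with tau, 8 of 9 in IkbkbCA and 8 of 9 in Ikbkb-/-. *Oas3* changed by 5.25, 4.72 and 5.36 on the log2 scale. *Oas2* was at 7.54 to 20.8 CPM with tau, at least 9.60-fold above the level of 3 counts in each vehicle library, none of which had more than 1 count. *Oasl1* rose by 4.27 in IkbkbCA. With tau it was at least 17.3-fold above 3 counts per vehicle library, and in Ikbkb-/- at least 18.7-fold above 3 counts per control library. The *Oas1* genes are related copies, so some reads may have been split between them.

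Of the cofactors of the RNA sensors, *Ddx60*, a helicase that aids RIG-I, was higher by 4.64 with tau, 0.94 in IkbkbCA and 1.74 in Ikbkb-/-. *Trim25*, a ubiquitin ligase of RIG-I, rose by 1.63 with tau and 0.505 in Ikbkb-/- and did not pass in IkbkbCA (0.13, FDR 0.416). *Rnf135*, another, rose by 0.95 with tau, 0.61 in IkbkbCA and 0.72 in Ikbkb-/-. Of the 13 tested cofactors, 5 were higher and 2 lower with tau, 4 higher in IkbkbCA and 4 in Ikbkb-/-.

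Below MAVS and STING, 8 of 14 genes were higher with tau and 7 in IkbkbCA, with 1 lower, but 2 were higher and 1 lower in Ikbkb-/-. *Irf7*, the interferon-inducible transcription factor of interferon genes, was higher by 6.32 with tau, 4.20 in IkbkbCA and 5.07 in Ikbkb-/-. *Ikbke*, which encodes IKKε, was higher by 2.44 with tau and 1.79 in IkbkbCA, and its value in Ikbkb-/- was −0.14 (FDR 0.603). *Nfkb1*, an NF-κB subunit, rose by 1.03 with tau and 0.58 in IkbkbCA and fell by 0.45 in Ikbkb-/-.

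Genes of cytosolic DNA sensing were higher for 4 of 9 with tau, among them *Sting1* (1.46) and *Cgas* (1.35), the receptor and the enzyme of that pathway. In IkbkbCA 0 of 9 were higher and *Hmgb1*, a nuclear DNA-binding protein, fell by 0.57, and in Ikbkb-/- *Nlrc3* was the 1 gene higher (0.76). Of the genes of nucleic acid clearance and editing, *Samhd1*, which depletes deoxynucleotides, was higher by 2.72 with tau, 0.81 in IkbkbCA and 1.15 in Ikbkb-/-. *Pld4*, an endolysosomal exonuclease, rose by 2.23 with tau and *Pnpt1*, a mitochondrial RNA exonuclease, by 0.68 in IkbkbCA. *Rnaseh2c*, a subunit of RNase H2, fell by 0.38 in Ikbkb-/-. In this list 5 of 13 were higher and 1 lower with tau, 3 higher in IkbkbCA, and 2 higher and 1 lower in Ikbkb-/-.

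Of the genes of the death pathway below ZBP1, 3 of 5 tested were higher with tau, with *Gsdmd*, the pore-forming gasdermin, at 1.76 and *Nlrp3*, an inflammasome sensor, at 1.59. In IkbkbCA 1 of 7 was higher (*Nlrp3*, 1.15) and in Ikbkb-/- 0 of 6 were, where *Nlrp3* had −0.04. Around PKR, the integrated stress response list had 3 of 13 higher and 1 lower with tau, 2 of 13 higher and 1 lower in IkbkbCA, and 1 of 12 higher and 3 lower in Ikbkb-/-. Each of these is a count of 1 to 3 genes, against 7.64% of all genes higher and 6.96% lower in Ikbkb-/-. *Ddit3*, which encodes the stress factor CHOP, was higher in all 3 comparisons, by 1.41, 0.83 and 1.24. *Chac1*, which degrades glutathione, fell by 1.52 with tau, *Dnajc3*, an inhibitor of PKR, fell by 0.57 in IkbkbCA, and *Ppp1r15a*, a cofactor that dephosphorylates eIF2α, fell by 0.83 in Ikbkb-/-.

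Endosomal nucleic acid receptors, which read RNA and DNA that was taken up, were higher for 5 of 7 with tau, 2 of 7 in IkbkbCA and 3 of 7 in Ikbkb-/-. *Unc93b1*, their chaperone, rose by 2.02 and *Myd88*, an adaptor of several of them, by 1.94 with tau. *Ticam1*, the adaptor of *Tlr3*, did not pass with tau (0.23, FDR 0.570) or in IkbkbCA (−0.14, FDR 0.701). *Tlr3*, a receptor of double-stranded RNA, rose by 1.76 with tau, 1.45 in IkbkbCA and 1.63 in Ikbkb-/-. *Myd88* rose by 0.74 in IkbkbCA, and *Tlr7* by 0.91 with tau and 0.50 in Ikbkb-/-.

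**Figure D4:**
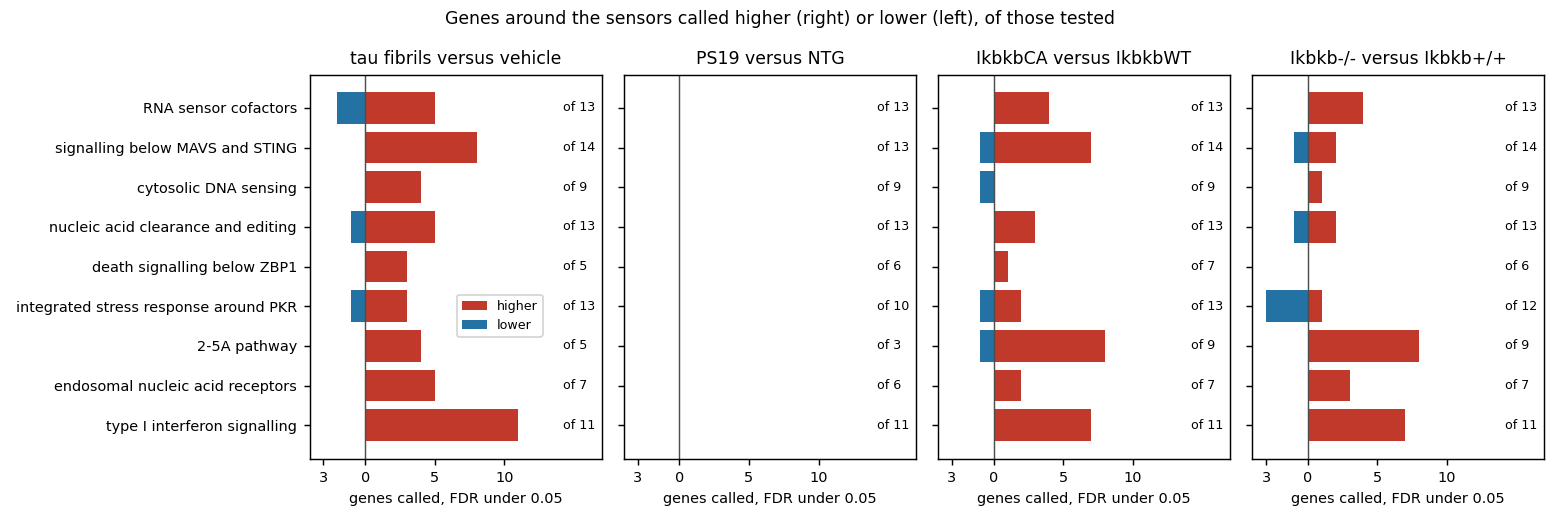
Number of genes called higher (to the right) or lower (to the left) at an FDR under 0.05 in 9 lists of genes around the sensors, for each comparison, with the number tested beside each bar. No gene is called in PS19, and all 11 tested genes of the type I interferon list are called higher with tau fibrils.

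The genes whose levels ran most like each member were sought among 9367 genes tested in all 4 comparisons, over 34 libraries, after the mean of each experiment was subtracted. These correlations describe libraries that share treatments and depth and carry no test. *Ifih1* and *Ddx58* were each other's nearest gene (r = 0.984), with *Ifit1* (0.975) also close to *Ifih1* and *Usp18* (0.981) to *Ddx58*. *Dhx58* was nearest to *Rnf213* (0.984), *Lgals3bp* (0.983) and *Znfx1* (0.981), and *Zbp1* to *Phf11b*, *Ifi47* (both 0.942) and *Stat2* (0.941). *Eif2ak2* was nearest to *Trim30d* (0.960), *Ddx58* (0.948) and *Epsti1* (0.946), and *Adar* to *Ifit3b* (0.962), *Rsad2* and *Oasl2* (both 0.955). For *Mavs* the nearest genes, *Ptdss2*, *Cdk5* and *Gm13340*, reached 0.583, 0.553 and 0.544.

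*Trex1* had 0 counts in all 34 libraries, and this value cannot be read as a level. In the GENCODE M21 annotation all 1147 exonic bases of *Trex1* lie inside exons of *Atrip*, a gene on the same strand. A counter that leaves out reads on more than 1 gene would therefore give *Trex1* none, and *Atrip* itself had at most 2 counts in a library. Ambiguous reads were 0.409% to 0.708% of the reads of a library. The study's methods name RSEM for the count table, while the tables hold whole numbers and a line of ambiguous reads, and the strand setting is not given in the sources used here. The other members had no overlapping gene on their own strand. On the opposite strand *Dhx58* overlaps *Dhx58os*, *Adar* overlaps *Chrnb2* and *Eif2ak2* overlaps *Gm26637*, with at most 7, 17 and 22 counts in a library.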

How the data were processed

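Per the submitters' notes and the study's methods, QuantSeq 3′ libraries were mapped to GRCm38 with Lexogen's QuantSeq pipeline on the BlueBee platform, and the notes name STAR, RSEM, edgeR and limma without versions. The authors deposited 1 table of raw read counts per library, as whole numbers over 47643 Ensembl genes, followed by lines for reads counted on no gene, which were left out of library sizes and tests (reads outside genes were 12.4% to 38.3%). GENCODE M21 gave symbols for 47224 identifiers. No pair of the 56 within-group pairs of libraries was identical.

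R 4.3.3 with edgeR 4.0.16 was used. Each comparison was fitted on its own libraries with TMM normalization, filterByExpr (minimum count 10, minimum total count 15) and the quasi-likelihood test, with Benjamini-Hochberg adjustment over all genes tested, and genes under an FDR of 0.05 were called. Standard errors were derived from each F statistic and log2 fold change, and 95% confidence intervals from the t distribution of that fit. Differences of effects were tested in joint fits. A group with at most 3 counts in every library was set to 3 counts per library for a lower bound, and such limits cover counting error only. Log2 CPM used a prior count of 2. Motifs were matched as spelled in RefSeq promoters (GRCm38.p6). The procedure was tested on simulated counts.

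Named genes are the members, *Ikbkb* and *Cx3cr1*, the called genes with the 2 largest changes of each list in each comparison, and the 3 genes most like each member, of which 1 gene is not reported here. *Isg15* and *Cdkn1a* for IkbkbCA replicate 3, *Xist* and *Ddx3y*, *Ifnar1*, *Ifnar2*, *Ifnb1* and *Atrip* were named after values were seen. The members, lists and tests were chosen with earlier results of these data known. Alternatives were RLE and total-count scaling, DESeq2 1.42.0, limma-voom (limma 3.58.1), no filter on low counts, a minimum of 10 counts in each library, 1 fit of all 34 libraries, age, reads outside genes and *Ddx3y* as covariates, and leaving out each library. The 2 subsets of IkbkbWT libraries were chosen after seeing the data.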

Additional observations from a re-analysis of the deposited data

Results flagged for a closer look

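In 7 of the 56 sets of member values within a group, 1 library lay farther from the rest than Dixon's test allows at 95%, where chance gives about 1 in 20. IkbkbCA replicate 3 was the low one for *Zbp1* (28.3 CPM, others 77.0 to 96.3 CPM) and for *Ifih1* (57.7 CPM, others 84.6 to 85.8 CPM), and 7 of 11 tested type I interferon genes were also lowest there. The share of all genes lowest in this library was not counted. Over all genes its counts differed more from each other IkbkbCA library than those libraries differed among themselves. Without this library the log2 fold changes of *Zbp1* and *Ifih1* in IkbkbCA were 2.85 and 2.01. *Adar* was low in PS19 replicate 1 (29.2 CPM), the library with *Xist* at 175.4 CPM. The other 4 were *Mavs* high in NTG replicate 4 (28.9 CPM) and low in Ikbkb-/- replicate 3 (17.51 CPM), and *Eif2ak2* high in tau replicate 2 (72.9 CPM) and low in NTG replicate 1 (15.4 CPM).

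The effect of tau fibrils differed from that of PS19 by a test of the difference for *Zbp1* (3.86), *Ifih1* (3.18), *Dhx58* (3.05), *Ddx58* (3.02), *Eif2ak2* (1.87) and *Adar* (1.17, all log2), and from that of IkbkbCA for *Zbp1* (2.28), *Dhx58* (2.05) and *Ifih1* (1.29). Both tests share the tau and vehicle libraries.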

How the results depend on the processing

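Over 978 refits of single members under other settings, 912 kept their direction and their side of the threshold, 4 lost a call, 11 gained one and 51 changed sign, none of them a called value. The number of members called stayed within 1.5 times the main number with these exceptions. In the fit of all 34 libraries 375 of 13722 genes, among them 1 member (*Dhx58*), were called in PS19. In the difference between tau fibrils and IkbkbCA, 1 member was called with at least 10 counts in every library. *Zbp1* and *Dhx58* were not tested there, and 1179 of 8277 genes were called. In that difference, *Ddx58* passed in 9 of 25 alternatives (lowest FDR 0.0191) and *Zbp1* failed with limma-voom (2.14, FDR 0.222).

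Changes of sign concerned members that were not called. For *Mavs* the values were −0.0896 with tau under total-count scaling, 0.00981, 0.0137, 0.00257, 0.000977 and 0.00771 in IkbkbCA under RLE, DESeq2, limma-voom, no filter and the fit of all libraries, 0.29 with IkbkbWT replicates 4 and 5 alone, −1.10 in Ikbkb-/- with *Ddx3y*, −0.0899 for tau against PS19 under total-count scaling, and 0.00544, 0.0144, 0.0848 and 0.0723 for tau against IkbkbCA under DESeq2, limma-voom, no filter and the fit of all libraries. *Ifih1* in PS19 was 0.0140, 0.0305, 0.0218, 0.21 and 0.0311 under total-count scaling, no filter, the fit of all libraries, age and reads outside genes. Leaving out 1 library gave *Mavs* −0.22 to 0.24 with tau, −0.20 to 0.0824 in PS19, −0.11 to 0.0537 in IkbkbCA, −0.18 to 0.27 for tau against PS19 and −0.24 to 0.20 for tau against IkbkbCA, *Ifih1* −0.13 to 0.16 and *Ddx58* −0.16 to 0.34 in PS19, and *Ddx58* −0.0313 to 0.19 and *Eif2ak2* −0.24 to 0.000256 for IkbkbCA against Ikbkb-/-. The cause was not tested. Total-count scaling moved the median of all genes with tau from −0.01 to −0.16 and in no case changed the call of a member. No paired analysis was possible because the labels give no replicate numbers shared between groups. Depth limits *Zbp1* most, with 3 to 8 counts per vehicle library and 0 to 14 per NTG library.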

Other observations

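Within groups the members ran together less closely than across treatments. After the mean of each group was subtracted, the 15 pairs among the 6 members other than *Mavs* had Pearson correlations of 0.153 to 0.755 over 34 libraries (median 0.335), against 0.889 to 0.984 when only the mean of each experiment was subtracted. Without IkbkbCA replicate 3 the within-group median was 0.239. The 6 pairs with *Mavs* had −0.237 to 0.204 within groups. These libraries share groups, depth and normalization, and the values are descriptions.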
